A study of Saccharomyces cerevisiae with 88 samples.

Results

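Yeast cells in which rapamycin can draw Nab3 out of the nucleus were compared with cells given the solvent ethanol, by Pol II χCRAC at late times after glucose was removed. χCRAC cross-links a protein to RNA with ultraviolet light in living cells within seconds, purifies the tagged protein (here Rpo21, the largest subunit of Pol II) and sequences the bound RNA, so that Pol II χCRAC reads nascent transcription. The late libraries were chosen by their labelled times, 14 or 18, 20 or 28 and 40 or 51 min. They number 11 of the 88 samples of the series, 6 from 2 rapamycin cultures and 5 from 2 ethanol cultures. A sixth ethanol sample, labelled 20 min of time-course 1, had no column that matched its label and was not used here. By the labels all 4 cultures are MATalpha tor1-1 with fpr1::NAT and RPL13A-2xFKBP12::TRP, and by the study's methods they carry Nab3 fused to FRB and Rpo21 fused to the HTP tag. The tor1-1 allele and the loss of Fpr1 make growth resistant to rapamycin, and the ethanol cultures carry both alleles too. Cells grew in glucose medium, received rapamycin or ethanol an hour before the shift, and were moved to medium without glucose at 0 min. Rapamycin was thus present from before the shift.

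Nab3 binds short motifs in nascent RNA and, with Nrd1 and the helicase Sen1, ends transcription of snoRNAs, of cryptic unstable transcripts (CUTs), which the nuclear exosome degrades, and of some mRNA genes shortly after their start. The ends of these transcripts are set by this NNS complex in place of the cleavage and polyadenylation machinery. In the anchor-away system rapamycin joins FRB to FKBP12, and ribosomal protein L13A carries the joined protein out of the nucleus. The values measure Pol II on RNA and not Nab3 itself, so the depletion cannot be checked from them.

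The late ethanol libraries held 78158 to 329534 reads on annotated features and the late rapamycin libraries 234393 to 600571, and the 2 libraries of ethanol time-course 1 were the shallowest, with 107971 and 78158. Precision was lowest there, since 37.5% and 48.0% of features had no read. The α-specific genes STE3 and MF(ALPHA)1 were above 0 in all 11 libraries, and the a-specific MFA1 and BAR1 were each at 0 in 7 (6 reads in all for each), against 5.08 to 99.0 FPKM for MFA1 in the BY4741 MATa libraries. The a-specific MFA2 and AGA2 were at 0 in 6 and 10. Other markers were less clear. The α-specific MF(ALPHA)2 was at 0 in 4 libraries, and SAG1 had a median of 2.01 FPKM against 2.32 in BY4741. The a-specific STE2 and STE6 were at 0 in 1 library each, with medians of 2.14 and 2.56 FPKM against 46.7 and 15.8 in BY4741. FPR1, which is disrupted by the label, had 12.2 to 45.7 FPKM (315 reads over the 11 libraries), against 27.6 to 92.1 FPKM in the BY4741 Pol II libraries of the series. The values are sums over the feature and do not show where in FPR1 the reads lie.

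The sequences between 6 snoRNAs and the features that begin downstream of them are shown because Pol II on these features had the largest rises among the tested snoRNA neighbours. Capitals mark the Nab3 motifs CTTG and TCTT and the Nrd1 motifs GTAA and GTAG, searched on the snoRNA strand with overlapping matches counted separately. All are written 5′ to 3′ from the base after the snoRNA, from the R64 reference.
snR37 to CUT681, chrX:227921-228093, minus strand: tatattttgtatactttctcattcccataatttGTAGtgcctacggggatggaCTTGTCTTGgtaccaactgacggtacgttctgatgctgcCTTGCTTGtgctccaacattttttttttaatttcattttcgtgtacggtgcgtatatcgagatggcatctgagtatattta
snR48 to CUT150, chrVII:609697-609798, plus strand: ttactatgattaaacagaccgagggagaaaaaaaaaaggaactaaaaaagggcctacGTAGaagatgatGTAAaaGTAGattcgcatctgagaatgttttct
snR11 to CUT306, chrXIII:652533-652601, plus strand: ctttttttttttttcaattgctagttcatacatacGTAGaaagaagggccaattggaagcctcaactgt
snR8 to YTM1, chrXV:832522-832613, plus strand: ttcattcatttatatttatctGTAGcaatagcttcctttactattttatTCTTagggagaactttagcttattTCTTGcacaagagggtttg
snR5 to HEM4, chrXV:842607-842728, plus strand: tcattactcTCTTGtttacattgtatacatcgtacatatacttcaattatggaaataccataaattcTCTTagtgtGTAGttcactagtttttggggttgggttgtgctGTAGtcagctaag
snR13 to TRS31, chrIV:1403043-1403154, plus strand: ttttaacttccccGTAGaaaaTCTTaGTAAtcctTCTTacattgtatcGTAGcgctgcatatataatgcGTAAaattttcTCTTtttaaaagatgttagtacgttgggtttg
The snR37 stretch held 5 Nab3 matches and 1 Nrd1 match, and the snR13 stretch 3 and 4. The snR48 stretch held 0 Nab3 matches and 3 Nrd1 matches. Such 4-base motifs are frequent by their length alone. In the 100 bases after each of 77 snoRNAs, 84.4% of windows held a Nab3 motif and 59.7% held both kinds, and in the 100 bases after 6657 protein-coding genes the shares were 61.0% and 29.6%. A match is a description of these letters and not a binding site.

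With rapamycin, Pol II was higher on 68 features and lower on 0 (limma on log2(FPKM + 1) with 1 mean per culture, 2 against 2 cultures, Benjamini-Hochberg adjusted p below 0.05). The tests covered the 4984 of 12441 features that had reads in all 11 libraries, so the background share called higher was 1.36%, and the share called lower was 0.0%. The called features were 20 CUTs, 11 SUTs, 13 XUTs, 7 annotated anti-sense transcripts and 17 protein-coding features. SUTs are stable unannotated transcripts and XUTs are transcripts degraded by the cytoplasmic nuclease Xrn1. Since annotations of one transcript overlap, the 68 features fall into 50 loci on one strand, of which 17 have a protein-coding feature. No tRNA, rRNA or snoRNA was called. At an unadjusted p below 0.05 there were 956 features, 55 of them lower.

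The median tested feature was itself 0.49 higher (log2) with rapamycin on the deposited scale. The authors had scaled every library to one sum of FPKM, and tRNA made up 34.1% to 49.0% of that sum with ethanol and 22.4% to 38.1% with rapamycin. Library medians were therefore also set equal, which moved the median difference to -0.08. On this second scale 0 features were called by limma, the smallest adjusted p was 0.0501 (CUT681), and 753 features had an unadjusted p below 0.05, with 261 higher and 492 lower. All 68 features were still higher with rapamycin on the second scale, by 1.29 to 3.73 (median 1.80). In the rest of the text a difference is on the deposited scale unless equal medians are named, and every call is one of the deposited scale that did not hold at equal medians.

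The count of calls rested on which cultures were present. It was 7 without rapamycin time-course 2, 15 without rapamycin time-course 1, and 175 without ethanol time-course 1, where 1 further feature was lower. Without ethanol time-course 2 it was 1775, with 125 lower. The 68 features were higher in each of these 4 comparisons.

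Every rapamycin library lay above every ethanol library in 483 of the 4984 features (9.69%) and below in 41 (0.823%). At equal medians these counts were 135 (2.71%) and 209 (4.19%). Of the 68 called features, 68 were apart on the deposited scale and 58 on both scales.

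**Figure D1:**
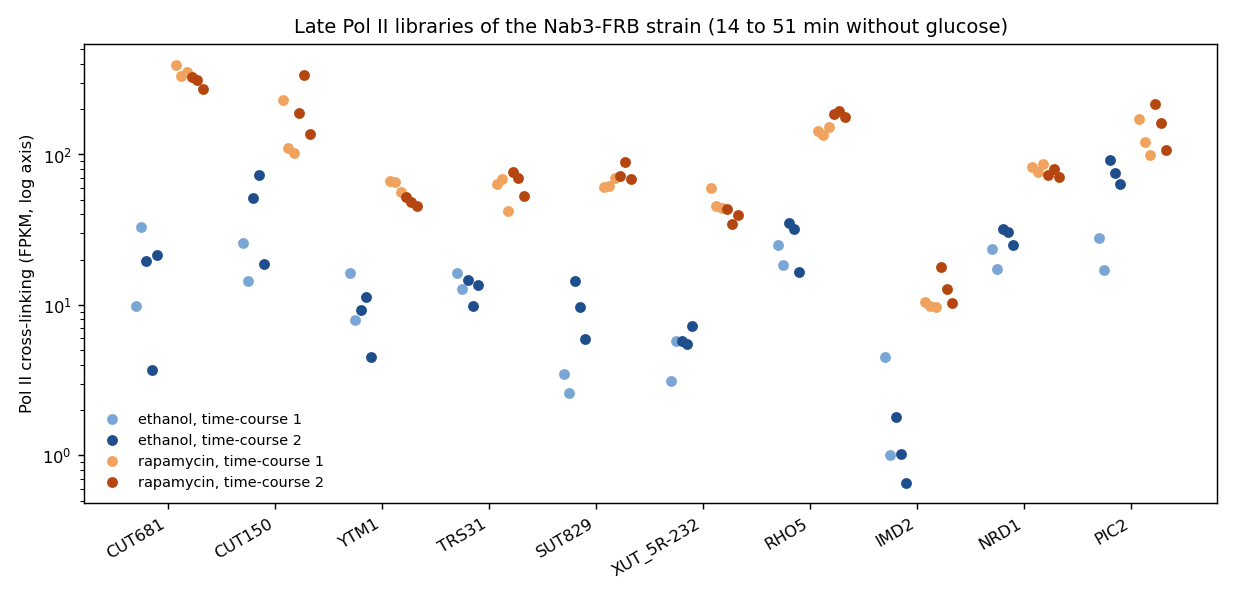
Pol II FPKM (log axis) of 10 features in each late library, 1 point per library, coloured by treatment and time-course. For CUT681 the 6 rapamycin libraries lie between 271.0 and 394.1 FPKM and the 5 ethanol libraries between 3.70 and 32.8 FPKM.

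The largest rise was at CUT681 (chrX:227752-227920, minus strand), a cryptic transcript that begins 174 bases after the H/ACA snoRNA snR37. It had 9.82 and 32.8 FPKM at 18 and 51 min of ethanol time-course 1, and 19.6, 3.70 and 21.4 FPKM at 14, 20 and 40 min of ethanol time-course 2. With rapamycin it had 271.0 FPKM in the lowest library, a median of 329.0 and 394.1 FPKM in the highest. The groups were far apart, on 15 reads in all ethanol libraries and 529 in all rapamycin libraries. The difference was 4.39 ± 0.41 (log2, SE, 2 against 2 cultures, limma adjusted p = 0.00206), and 3.73 ± 0.42 at equal medians. The snoRNA snR37 itself had 368.5 to 737.7 FPKM with ethanol and 438.9 to 749.6 FPKM with rapamycin, which overlapped (difference 0.11 ± 0.43, and -0.56 ± 0.35 at equal medians).

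YTM1, whose product is needed to assemble the large ribosomal subunit, begins 93 bases after snR8 (chrXV:832614-834233, plus strand). Its ethanol libraries had 16.4 and 7.98 FPKM in time-course 1 and 9.22, 11.2 and 4.47 FPKM in time-course 2. Its rapamycin libraries had 45.2 FPKM at the lowest, 54.5 at the median and 66.2 at the highest, so the groups did not overlap. The difference was 2.42 ± 0.41 (limma adjusted p = 0.0213) and 1.79 ± 0.41 at equal medians. On a list of 50 ribosome biogenesis genes 42 were not tested. Of the 8 that were tested, YTM1 was the single one that was higher with rapamycin. The other 7, such as NSR1 at -1.06 and DBP2 at -1.53, were below 0 at equal medians, and none of them passed the test.

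TRS31, a subunit of the TRAPP complexes of vesicle transport, begins 113 bases after snR13 (chrIV:1403155-1404173, plus strand). Its ethanol libraries had 16.3 and 12.7 FPKM in time-course 1 and 14.7, 9.83 and 13.6 FPKM in time-course 2. The rapamycin libraries had 41.8 FPKM at the lowest, 66.0 at the median and 76.4 at the highest, and were all above these. The difference was 2.10 ± 0.39 (limma adjusted p = 0.0296), and 1.46 ± 0.38 at equal medians.

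CUT150, which starts 103 bases after snR48 (chrVII:609799-609927, plus strand), had 25.7 and 14.3 FPKM in ethanol time-course 1 and 51.5, 72.8 and 18.7 FPKM in time-course 2. With rapamycin it had 101.7 FPKM at the lowest, 162.3 at the median and 339.2 at the highest. The groups were apart on this scale and overlapped at equal medians. The difference was 2.53 ± 0.47 (limma adjusted p = 0.0293) and 1.87 ± 0.41 at equal medians.

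CUT306 after snR11 and HEM4 after snR5 had differences of similar size that did not pass the threshold. CUT306 had 20.7 to 118.9 FPKM with ethanol and 195.4 to 315.1 FPKM with rapamycin (difference 2.48 ± 0.55, limma adjusted p = 0.0637, and 1.82 ± 0.47 at equal medians). HEM4, the uroporphyrinogen III synthase of heme synthesis, had 2.02 to 16.4 FPKM with ethanol and 25.9 to 40.4 FPKM with rapamycin (difference 2.11 ± 0.47, limma adjusted p = 0.0653, and 1.52 ± 0.41 at equal medians). Both pairs of groups were apart on both scales.

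Features that begin within 1000 bases of a snoRNA 3′ end on its strand numbered 78, of which 32 were tested, 8 CUTs and 24 protein-coding genes. Of these, 4 were called higher (12.5%, against 1.36% of all tested features) and 12 had all rapamycin libraries above all ethanol libraries (9.69% of all tested features, 5 at equal medians). Their median difference was 0.68 on the deposited scale and 0.08 at equal medians, against 0.49 and -0.08 over all features. The 21 neighbours within 300 bases held all 4 calls and had a median of 0.72 at equal medians, with 14 above 0. The 11 beyond 300 bases had a median of -0.28, with 3 above 0. The split at 300 bases was chosen with the values known and was not tested. The 32 tested neighbours include TRS31, HEM4 and SEN2. The study had selected these genes in part by a rise in Pol II with rapamycin in this strain. Their direction is thus not independent evidence.

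**Figure D2:**
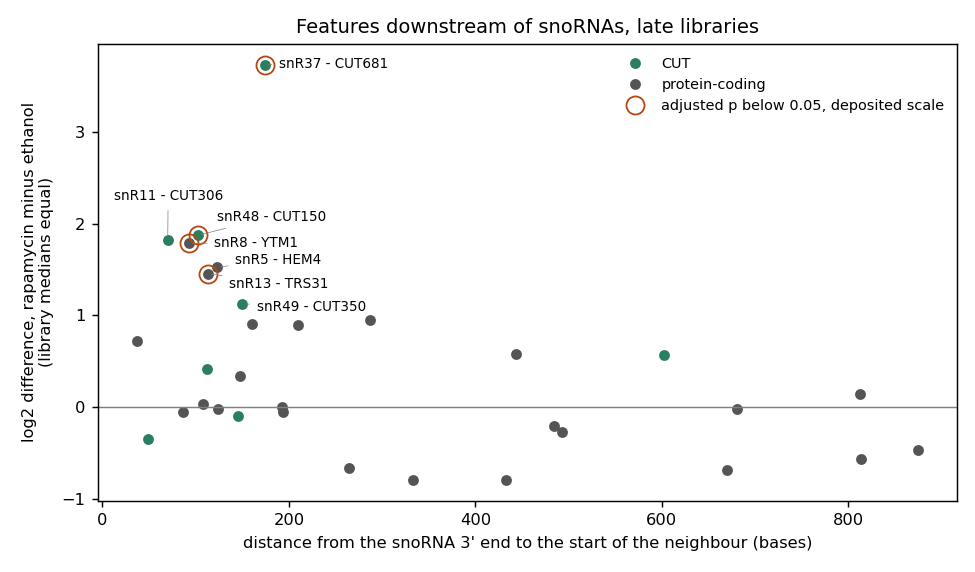
Log2 difference (library medians equal) of the 32 tested features downstream of snoRNAs against the distance from the snoRNA 3′ end in bases, CUTs in green and protein-coding genes in grey, with the 4 called features circled. The 4 calls lie at 93 to 174 bases, and CUT681 is highest at 3.73.

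Of the 51 called non-coding features, 44 (86.3%) overlapped a protein-coding gene on the other strand, as did 725 of all 1107 tested non-coding features (65.5%). By class these shares were 16 of 20 called CUTs against 50.9% of tested CUTs, 10 of 11 SUTs against 71.6%, 11 of 13 XUTs against 70.0%, and all 7 and all 129 anti-sense transcripts, which are so defined. These shares were not tested against each other. The strand was used in counting, since XUT_5R-232 (chrV:542758-544353) lies wholly within the gene ECM32 on the other strand and had 672 reads with rapamycin, more than the 209 of ECM32. The 44 transcripts lay opposite 37 genes. Of the 29 that were tested, 1 was itself called higher, 17 were above 0 at equal medians, and their median was 0.26 there. Over all 3492 tested protein-coding features 0.487% were called higher. At equal medians 1549 of these were above 0, and their median was -0.07.

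SUT829 (chrXVI:643546-644978, minus strand) lies opposite VMA13, a subunit of the vacuolar proton pump, and GLN1, the glutamine synthetase. It had 3.47 and 2.58 FPKM in ethanol time-course 1 and 14.5, 9.61 and 5.90 FPKM in time-course 2. With rapamycin it had 60.9 FPKM at the lowest, 69.1 at the median and 89.6 at the highest, clearly above all ethanol libraries. The difference was 3.46 ± 0.49 (limma adjusted p = 0.0191), and 2.87 ± 0.43 at equal medians. XUT_16R-288, which shares most of this stretch and hence its reads, had 3.35 and 2.78. VMA13 stood at 1.30 and GLN1 at -0.37 (0.68 and -1.03 at equal medians), and neither passed the test.

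XUT_5R-232, opposite the DNA helicase gene ECM32, had 3.12 and 5.79 FPKM in ethanol time-course 1 and 5.72, 5.49 and 7.19 FPKM in time-course 2. The rapamycin libraries had 34.7 FPKM at the lowest, 43.8 at the median and 59.8 at the highest. The difference was 2.87 ± 0.40 (limma adjusted p = 0.0191) and 2.26 ± 0.34 at equal medians. ECM32 itself had 5.95 to 7.93 FPKM with ethanol and 4.15 to 7.14 FPKM with rapamycin, so that the strand opposite did not share the rise (difference -0.32 ± 0.40, and -0.90 ± 0.38 at equal medians).

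SUT435 (chrI:33076-34380, minus strand) lies opposite BDH2, a putative alcohol dehydrogenase, and GDH3, an NADP-dependent glutamate dehydrogenase. It had 3.81 and 1.42 FPKM in ethanol time-course 1, 4.45, 3.36 and 4.63 FPKM in time-course 2, and 15.3 to 38.7 FPKM (median 28.8) with rapamycin. The difference was 2.81 ± 0.43 (limma adjusted p = 0.0191) and 2.26 ± 0.39 at equal medians. The gene on the other strand did not pass the test, with 7.80 to 30.0 FPKM for BDH2 with ethanol and 45.9 to 92.0 FPKM with rapamycin (difference 2.08 ± 0.53, limma adjusted p = 0.0852, and 1.44 ± 0.47 at equal medians).

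ICL1, the isocitrate lyase of the glyoxylate cycle, was the one gene called together with its anti-sense transcripts. It had 4.01 to 9.56 FPKM with ethanol and 15.6 to 54.9 FPKM with rapamycin (difference 2.01 ± 0.42, limma adjusted p = 0.0445). SUT093 on the other strand had 3.00 to 4.88 FPKM and 13.8 to 21.8 FPKM (difference 1.96 ± 0.39, limma adjusted p = 0.0382). Both strands thus rose here, by 1.39 and 1.37 at equal medians.

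Other anti-sense transcripts with large rises were CUT_CGR193CTa3-A opposite PDX1, a component of the pyruvate dehydrogenase complex, at 3.14, CUT_CLR172CTa1 opposite APS1 at 3.07, CUT685 opposite TAX4 at 2.80, CUT848 opposite EFT1 and VPS17 at 2.75 and XUT_5F-122 opposite PIC2 at 2.69. Their limma adjusted p-values were between 0.0191 and 0.0213, and at equal medians CUT_CGR193CTa3-A had 2.53, CUT_CLR172CTa1 2.43, CUT685 2.19, CUT848 2.12 and XUT_5F-122 2.07. PDX1 stood at 0.51, TAX4 at 0.21, EFT1 at 0.27, VPS17 at 0.44 and PIC2 at 1.76, none of which passed the test. At equal medians these 5 genes had -0.05, -0.35, -0.36, -0.19 and 1.10. APS1 was not tested. Not anti-sense to a gene was CUT_CtV(AAC)G1D1-A (chrVII:412394-412539, minus strand), at 28.4 to 68.2 FPKM with ethanol and 380.1 to 524.2 FPKM with rapamycin (difference 3.46 ± 0.41, limma adjusted p = 0.0119, and 2.79 ± 0.44 at equal medians). CUT337 (chrXIV:500554-500682) stood at 2.68 ± 0.43, and at 2.02 ± 0.35 at equal medians.

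As classes, CUTs, SUTs, XUTs and anti-sense transcripts had median differences of 0.68, 0.63, 0.71 and 0.74 on the deposited scale, protein-coding features 0.50, snoRNAs 0.02 and tRNAs -0.51. At equal medians they had 0.04, 0.07, 0.14, 0.15, -0.07, -0.65 and -1.18. Of the 1107 tested members of the first 4 classes, 51 were called higher (4.61%), against 17 of 3492 protein-coding features (0.487%) and 1.36% of all tested features. The median of these non-coding classes thus stood near that of all features on either scale, and the calls came from their upper tail. tRNAs, which Pol III makes, were below 0 at equal medians in 275 of 277 cases, and 0 passed the test by limma (213 at an unadjusted p below 0.05).

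**Figure D3:**
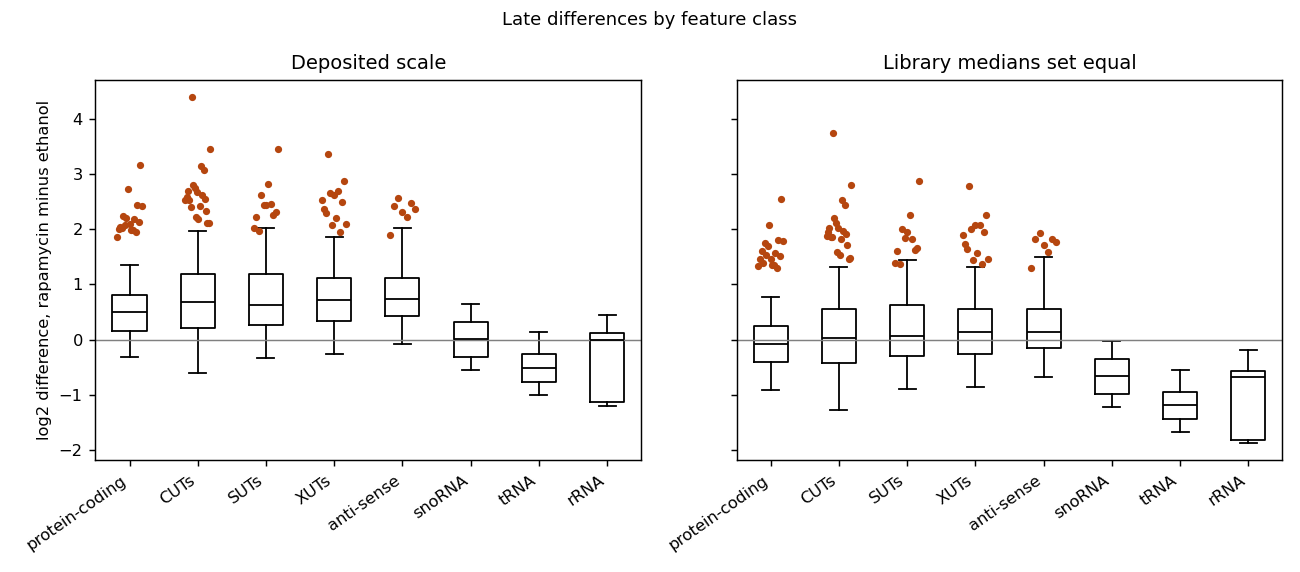
Log2 difference (rapamycin minus ethanol) by feature class on the deposited scale (left) and with library medians equal (right), as boxes from the lower to the upper quartile with the median and whiskers from the 5th to the 95th percentile. The orange points are the 68 called features, which reach 4.39 on the left and 3.73 on the right, while the CUT median falls from 0.68 to 0.04.

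Of 10 genes that NNS is known to stop early 9 were tested, and 1 was called higher (11.1%, against 1.36% of all tested features). All 9 had values above 0 on both scales, against 4001 of all 4984 on the deposited scale and 2188 at equal medians, and their medians were 1.33 and 0.77. The study had selected SER3, IMD3, NRD1 and URA8 from glucose data of this strain, in part by a rise in Pol II with rapamycin. The direction of these genes is thus not independent evidence. FKS2 was not found under that name. The called gene was IMD2, the inducible IMP dehydrogenase of GTP synthesis, which is regulated through alternative start sites. IMD2 had 4.53 and 1.01 FPKM in ethanol time-course 1, 1.81, 1.02 and 0.659 FPKM in time-course 2, and 9.62 to 17.9 FPKM (median 10.4) with rapamycin. The groups did not overlap, on 15 and 194 reads, and the difference was 2.24 ± 0.42 (limma adjusted p = 0.0296) and 1.75 ± 0.43 at equal medians. IMD2 has near-identical paralogs, among which reads that fit several places were divided at random, so its value is less certain.

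NRD1, which encodes the partner of Nab3 and is attenuated by the complex, had 23.6 and 17.2 FPKM in ethanol time-course 1 and 32.2, 30.4 and 24.9 FPKM in time-course 2. With rapamycin it had 70.6 FPKM at the lowest, 78.2 at the median and 86.5 at the highest. The groups were apart on both scales, and the difference of 1.65 ± 0.40 did not pass the test (limma adjusted p = 0.0751, 1.00 ± 0.34 at equal medians). HRP1 and PCF11, which encode cleavage factors, stood at 1.73 and 1.33, SER3 of serine synthesis at 1.51, URA2 and URA8 of pyrimidine synthesis at 0.94 and 0.80, ADE12 of AMP synthesis at 0.91 and IMD3 at 0.76. None of these 7 passed the test. At equal medians HRP1 had 1.12, PCF11 0.77, SER3 0.89, URA2 0.37, URA8 0.15, ADE12 0.28 and IMD3 0.20. SER3 also differed in the strain without the FRB tag, at 23.8 FPKM without and 78.1 FPKM with rapamycin. NAB3 itself, at 0.66 and at 0.06 at equal medians, was close to the median feature.

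The study singled out RHO5, PIC2, MAL33 and GRE3 with data of these cultures as genes held back by Nab3 without glucose, so their direction is not independent evidence. It used the escape index, which compares Pol II near the start of a gene with Pol II over its body, with a rise in Pol II and Nab3 sites near the start. By qRT-PCR it found more PIC2 and MAL33 mRNA on depletion without glucose. The values here are sums over the whole feature, a different measure. Of the 4, 1 was called (25.0%, against 1.36% of all tested features). RHO5, a small GTPase, had 24.9 and 18.5 FPKM in ethanol time-course 1, 35.3, 31.8 and 16.6 FPKM in time-course 2, and 135.2 to 195.3 FPKM (median 164.8) with rapamycin. The groups were far apart, and the difference was 2.72 ± 0.40 (limma adjusted p = 0.0191) and 2.07 ± 0.37 at equal medians. Among called protein-coding features only YJL152W was higher, at 3.15. CUT_CNL180CD2, which overlaps the start of RHO5 on its strand (chrXIV:300552-301052), had 33.2 to 103.7 FPKM with ethanol and 217.1 to 292.5 FPKM with rapamycin (difference 1.95 ± 0.45, limma adjusted p = 0.0726, and 1.28 ± 0.38 at equal medians). Reads in the stretch that both share cannot be told apart between them.

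PIC2, a mitochondrial carrier of copper and phosphate, had 27.6 and 16.9 FPKM in ethanol time-course 1 and 92.0, 75.6 and 63.9 FPKM in time-course 2. With rapamycin it had 98.7 FPKM at the lowest, 141.4 at the median and 215.5 at the highest. The rapamycin libraries were all above, but the ethanol cultures differed so much that 1.76 ± 0.55 did not pass the test (limma adjusted p = 0.143, and 1.10 ± 0.47 at equal medians). MAL33, a maltose activator, stood at 1.64 ± 0.43 (limma adjusted p = 0.0966, 0.99 at equal medians) and GRE3, an aldose reductase, at 0.87 ± 0.42 (limma adjusted p = 0.279, 0.21 at equal medians). The study also selected 4 genes in glucose that it attributed to snoRNA read-through. A rise in Pol II with rapamycin was part of that selection, so their direction is not independent evidence either. Of these 4 genes, TRS31 was called. HEM4 (2.11) and SEN2, a tRNA splicing endonuclease subunit (1.33, and 0.72 at equal medians), were not. FLX1, a mitochondrial FAD carrier, was not tested because 2 ethanol libraries had no read. It had 0 to 5.26 FPKM with ethanol and 9.35 to 17.2 FPKM with rapamycin, which did not overlap.

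The study also chose 3 genes, LST8, GLK1 and YBR085C-A, whose escape index made regulation by Nab3 less likely. Even so, it reported a significant change of LST8 mRNA on Nab3 depletion. It also found that YBR085C-A was induced faster once its Nab3 and Nrd1 motifs were mutated. In the late sums over the whole feature, 0 of 3 were called by limma (0 at an unadjusted p below 0.05 on the second scale). LST8, a subunit of the TOR complexes, stood at 0.03 ± 0.41 on the deposited scale and -0.63 ± 0.34 at equal medians. YBR085C-A stood at -0.05 ± 0.40 and -0.72 ± 0.34. GLK1, the glucokinase, stood at 1.00 ± 0.47 and 0.33 ± 0.39. At 1 and 2 min all 3 were higher with rapamycin at equal medians. LST8 had 1.01 there, GLK1 1.24 and YBR085C-A 1.72, against a median of 0.04 over all tested features. From early to late the difference changed by -1.26, -0.53 and -2.06 on the deposited scale, and none of these changes passed the test.

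The other called protein-coding features were YJL152W (3.15, opposite INO1 and SNA3), YHL019W-A (2.44, opposite APM2), LOT6, a quinone reductase, at 2.20, YDR261W-B at 2.18, YJL067W at 2.12, opposite MPM1, IRC15 at 2.08, ERC1 at 2.05, ECM3 at 2.01, YCL019W at 1.99, YDR210W-B at 1.98, YGR067C at 1.95 and BCS1, an assembly factor of respiratory complex III, at 1.86. At equal medians these 12 features had 1.30 to 2.54. Several rest on few reads. YJL152W had 14 reads over the ethanol libraries and LOT6 had 7, against 230 and 110 with rapamycin.

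Lists of other pathways had 0 or 1 called gene each. Over all 4984 tested features 1.36% were called higher, so such counts tell little for lists of this size. At an unadjusted p below 0.05 at equal medians, 261 of all tested features were higher and 492 lower, and their median was -0.08. Only tested members are counted here. Of 23 NNS and nuclear decay factors 17 were not tested, and of 20 cleavage and polyadenylation factors 9 were not. Glycolysis had 0 of 16 called by limma (0 at an unadjusted p below 0.05 at equal medians) and a median of -0.04 at equal medians. Heat shock genes had 0 of 22 called (0 higher and 7 lower at that unadjusted p) and a median of -0.66, with HSP26 at -1.16. Ribosomal protein genes had 0 of 128 called (45 lower at that unadjusted p) and a median of -0.68. Genes repressed by glucose had 1 of 27 called, ICL1, and a median of 0.05. Genes of nitrogen catabolite control, which respond to TOR, had 0 of 19 called (1 lower at that unadjusted p) and a median of 0.51 at equal medians, and the untagged strain gave 0.13 for this list. NNS and nuclear decay factors had 0 of 6 called (2 higher at that unadjusted p) and a median of 0.09. Cleavage and polyadenylation factors had 0 of 11 called (1 higher and 1 lower at that unadjusted p) and a median of -0.09. Nucleotide synthesis genes had 1 of 18 called, IMD2, and a median of 0.15.

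The 3 called features YDR261W-B, YCL019W and YDR210W-B are reading frames of Ty2 retrotransposons, which move through an RNA copy and are present in many near-identical copies. Reads that fit several copies had been divided at random, so families were compared by their median element. Ty2 (10 elements) had a median log2(FPKM + 1) of 3.27 and 3.69 in the ethanol cultures and 5.56 and 5.13 in the rapamycin cultures, a difference of 1.87. At equal medians it was 3.84 and 3.82 against 5.20 and 4.94, a difference of 1.23. The groups did not overlap on either scale. An exact permutation test of 2 against 2 cultures, two-sided, gave p = 0.333, the smallest that this design allows.

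Ty1 (31 elements) had 4.53 and 3.73 in the ethanol cultures and 4.92 and 4.87 in the rapamycin cultures, a difference of 0.77 (exact permutation p = 0.333). At equal medians the difference was 0.13 and the groups overlapped (exact permutation p = 1.0), since ethanol time-course 1 was then highest at 5.13. Ty3 (2 elements) and Ty4 (2 elements) differed by 0.41 and 0.50, and by -0.07 and 0.17 at equal medians. The untagged strain with rapamycin had a median of 0.04 for Ty2 and 0.61 for Ty1.

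**Figure D4:**
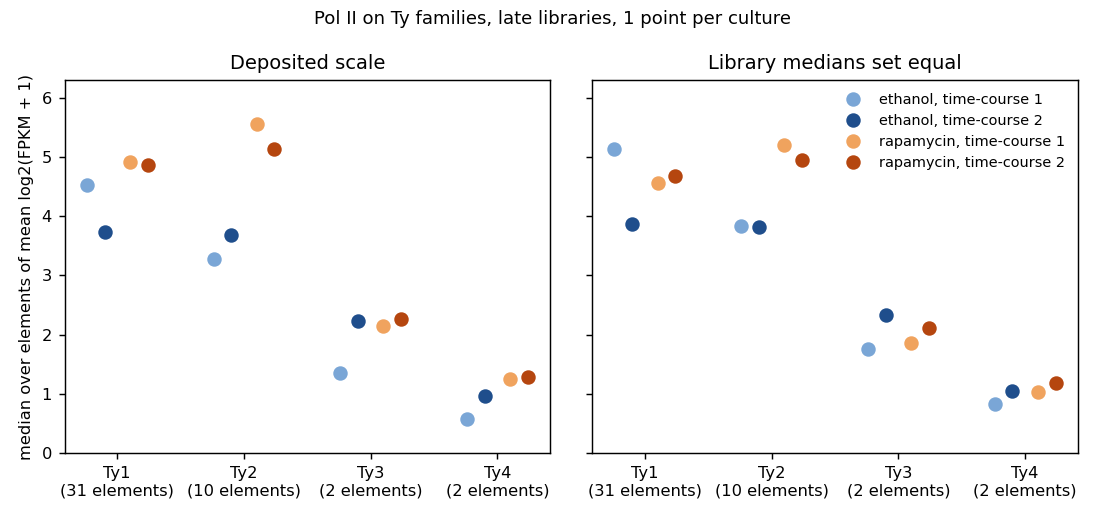
Median over the elements of each Ty family of the culture mean log2(FPKM + 1), 1 point per culture, on the deposited scale (left) and with library medians equal (right). The rapamycin cultures of Ty2 lie at 5.56 and 5.13 on the left against 3.27 and 3.69 with ethanol, and for Ty1 the cultures overlap on the right.

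The same cultures also have libraries at 1 and 2 min, which the comparison did not use. At equal medians 67 of the 68 called features were already higher with rapamycin there, with a median of 1.85 against 0.04 over all tested features. By class, 51 of 51 called non-coding features were above 0 (median 1.99) against 907 of 1107 tested non-coding features (median 1.02), and 16 of 17 called protein-coding features (median 1.12) against 1646 of 3492 (median -0.04). At 0 min, before the shift, where 1 rapamycin and 1 ethanol library of time-course 1 can be set side by side with no test, 56 of 68 were higher and the median was 1.26, against 2318 of all 4984 and a median of -0.09. Called non-coding features had 46 of 51 above 0 (median 1.39), and all tested non-coding features 653 of 1107 (median 0.19). CUT681 stood at 3.07 at 1 and 2 min and 2.45 at 0 min. RHO5 stood at 1.12 and 0.32, and YDR261W-B of Ty2 at 0.35 and -0.03. The test of whether the difference changed between 1 or 2 min and the late times covered 3793 features, 40 of them among the 68. It called 0 features (0.0%, limma, smallest adjusted p = 0.460, 394 at an unadjusted p below 0.05). The early libraries share their culture with the late ones.

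A strain without FRB on Nab3, which carries PMA1-2xFKBP12 as its anchor, was also given rapamycin. It has 1 library per condition at 14 min, so no test was possible. CUT681 and CUT685 were listed at 0 in both libraries of that strain, so their ratios carry no information. At equal medians the other 66 called features had a median log2 ratio of -0.04, and 31 were above 0. RHO5 had 37.7 FPKM without and 43.4 FPKM with rapamycin. The highest of the 68 was CUT_CNR034WTa1-A at 2.31.

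**Figure D5:**
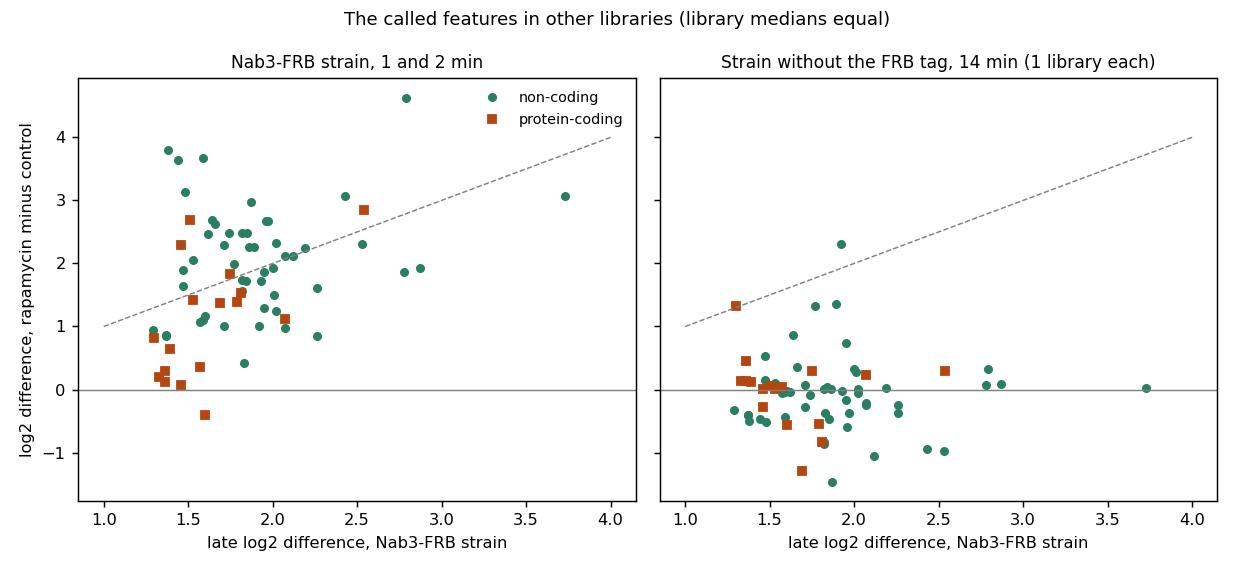
Log2 difference of the 68 called features at 1 and 2 min in the same cultures (left) and at 14 min in the strain without the FRB tag (right) against their late difference, all with library medians equal, with circles for non-coding and squares for protein-coding features and the dashed line at equal values. On the left 67 of 68 points are above 0, and on the right 33 are, of which CUT681 and CUT685 are at 0 FPKM in both libraries.

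In separate cultures of BY4741, a wild-type laboratory strain, the called features carried more Nab3 than the typical feature. From 14 min without glucose, the median Nab3 log2(FPKM + 1) was 5.53 for the 68 features and 2.79 for all tested features. Among non-coding features it was 5.93 against 5.19, and among protein-coding features 3.95 against 2.01. Relative to Pol II at 14 and 20 min, Nab3 was above in 60 of 68 (median 2.27) and in 1735 of all 4984 (median -0.72), where the Nab3 and Pol II tables had been scaled to the same sum. By class it was above in 49 of 51 called non-coding features (median 2.47) against 881 of 1107 tested non-coding features (median 1.54), and in 11 of 17 called protein-coding features (median 1.45) against 722 of 3492 (median -1.15). Pol II on the called features changed by a median of -0.66 from 0 to 14 and 20 min in BY4741, against -0.40 over all tested features. Of the 68 called features 22 were above 0, against 1906 of all 4984, so that glucose removal did not raise them as a group. Called features of either sign were CUT681 at -4.31 and CUT_CNR034WTa1-A at 3.62, and MAL33, not called, was at 3.87.

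Matches to the Nab3 motifs were denser in the called features, with a median of 16.0 per 1000 bases of the feature strand against 9.19 over all tested features. The called non-coding features had 18.1 against 13.8 for all tested non-coding features, and the called protein-coding features had 7.25 against 8.43. Matches to the Nrd1 motifs had a median of 6.15 against 5.89, but within each class the called features had fewer. The called non-coding features had 6.66 against 8.13, and the called protein-coding features 5.05 against 5.56.

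No feature was called lower. Of the 8 with the smallest unadjusted p among those whose rapamycin libraries were all below, 5 were tRNAs, 2 were CUTs and 1 was a copy of the 5S rRNA gene. RDN5-2 had 4310 to 10180 FPKM with ethanol and 2201 to 3652 FPKM with rapamycin (difference -1.23 ± 0.46, limma adjusted p = 0.200, and -1.91 at equal medians). It is one of several near-identical copies whose reads cannot be assigned. CUT_CsnR190D1, next to the snoRNA snR190, had 645.8 to 1561 FPKM with ethanol and 226.2 to 496.3 FPKM with rapamycin (difference -1.49 ± 0.43, limma adjusted p = 0.121, and -2.16 at equal medians). The 2 libraries of ethanol time-course 1, the shallowest, were highest in both, and the part of depth in these values was not tested.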

How the data were processed

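The members, gene lists and tests were chosen with earlier results of these data known. The authors removed reads with the same random barcode, aligned the rest to yeast R64 with Novoalign (2.0.4 in the submitters' processing notes), divided reads that fit several places at random and deposited FPKM, reads scaled to feature length and library size, for 12441 features in the tables of these cultures. The deposited FPKM had been scaled by the authors to the same sum in all late libraries. One line that matches no feature was dropped from each of the 4 tables, and 3 columns with no matching label were not used. Coordinates were taken from the deposited annotation, in which 99.9% of 6684 start codons read ATG in the R64 reference.

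Each culture was the mean log2(FPKM + 1) of its late libraries, for features above 0 in all of them. Rapamycin and ethanol were compared with limma 3.58.1 (R 4.3.3), using the Benjamini-Hochberg adjustment and a threshold of 0.05. The cultures are biological replicates by the study's methods. A count test was not used because the values are FPKM. Reads on features were recovered from the FPKM steps, with 96.4% to 97.9% of low values whole within 0.05. On simulated data of 4984 features with 200 changed, 74% of log2 changes of 2 and 98% of changes of 3 were recovered on the deposited scale, with 9 false calls. At equal medians the shares were the same, with 4 false calls, while the real fit called 0 features there. The simulated noise was independent between features, and no shift was common to a library or culture. The shares may therefore not hold for the real values. Differences are on the log2(FPKM + 1) scale and understate changes of low features.

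Named features were the 12 largest rises among calls apart in all libraries, 8 falls, all members of the lists chosen for NNS and by the study, up to 4 calls per class or list and the 6 snoRNA neighbours with the largest rise. Outside this rule, XUT_16R-288, CUT337, CUT_CNL180CD2, the genes opposite named transcripts, NSR1, DBP2, HSP26, NAB3, CUT_CNR034WTa1-A and the remaining called protein-coding features were named after their values were seen. Alternatives changed the scale, pseudocount, filter, time window, model and cultures.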

Additional observations from a re-analysis of the deposited data

Results flagged for a closer look

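Single libraries stood far from the rest of their treatment in 3 of 102 groups of libraries of named features, by Dixon's criterion at the 95% level, which chance alone passes in about 1 of 20 groups. All 3 are among the features with lower values under rapamycin, none of which passed the test. CUT_CsnR190D1 was lowest at 40 min of rapamycin time-course 1, with 7.83 on the log2(FPKM + 1) scale against 8.76 in the next library. CUT_CCR021CTs3-B was lowest at 14 min of rapamycin time-course 2, with 6.01 against 7.82. The tRNA gene tT(AGU)H was highest at 20 min of ethanol time-course 2, with 8.01 against 7.26.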

How the results depend on the processing

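The 68 features called higher became 0 with library medians equal, 0 with protein-coding sums equal, 45 with a pseudocount of 0.1, 0 with no detection filter (12076 features), 0 at 14 or 18 min alone, 17 at 40 or 51 min alone and 350 with all 11 libraries and a random effect of culture, where 6 were lower. A minimum mean FPKM of 10 (60), an intensity trend (75) and the window of 14 or 18 and 40 or 51 min (88) stayed within 1.5 times. Leaving out each culture, where the lone culture left is assumed to vary like the others, gave 7 to 1775 higher and 0 to 125 lower. Chosen after seeing the data, sums without tRNA and rRNA gave 1, and equal medians without each culture gave 72, 457, 5 and 1 higher and 20, 720, 2 and 0 lower. All 68 features kept their direction in each of these comparisons where they were tested.

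The time-course numbers are shared between treatments but the sources give them no common batch. A replicate block gave 290 higher and 3 lower. With equal medians, a fit chosen after seeing the data, it gave 62 higher and 76 lower. The check of pairing, the correlation of course 1 minus course 2 between treatments across features, was 0.055 with 2 pairs. The differences between courses were thus hardly shared across features. With a single such difference per treatment, the check cannot decide whether courses of the same number shared a batch or day. By the labels, the late times of course 2 were the same in both treatments, while those of course 1 differed in part. For the change from early to late the block gave 2 higher and 1 lower, and leaving out a culture gave 0 to 187 higher and 0 to 64 lower.

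Class medians at equal medians were -0.07 (protein-coding), 0.04 (CUTs), 0.07 (SUTs), 0.14 (XUTs), 0.15 (anti-sense), -0.65 (snoRNA), -1.18 (tRNA), -0.67 (rRNA) and -0.19 (ncRNA). Ty3 turned to -0.07 at equal medians and ranged from -0.03 to 0.85 over the cultures left out. On the deposited scale the other Ty families kept their sign when a culture was left out. At equal medians Ty1 turns below 0 without ethanol time-course 2, since ethanol time-course 1 (5.13) lay above both rapamycin cultures (4.56 and 4.68).

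Of 51 named features, 4 turned sign at least once and 26 were called, 0 of which turned. LST8 was -0.63 with equal medians, -0.45 with protein-coding sums, -0.01 with the random effect, -0.49 at 14 or 18 min, -0.46 without tRNA and rRNA, -0.63 with equal medians and the replicate block, and from -0.30 to 0.37 over the cultures left out, or -0.73, -0.53, -0.58 and -0.68 with equal medians. YBR085C-A was 0.0 at 14 or 18 and 40 or 51 min, 0.25 at 40 or 51 min and -0.29 to 0.20 over the cultures left out. With equal medians and a culture left out, IMD3 reached -0.48 and GLK1 -0.03. Depth limits features such as LOT6 and IMD2, with 7 and 15 reads in all ethanol libraries.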
